A study of Mus musculus with 8 samples.

Results

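The genes described here code for the channels that carry sodium and calcium through the membrane of nerve cells, together with the pacemaker channels: 5 sodium channel α subunits, 3 sodium channel β subunits, 8 calcium channel α1 subunits, 4 calcium channel β and 3 α2δ subunits, 3 HCN channels, the leak channel gene Nalcn and 3 FGF-homologous factors. They were picked by gene symbol as members of these channel families, and each of the 30 had its own row among the 15978 rows of the authors' deposited table. RNA sequencing of brain RNA compared 5 male mice that carried a cloned stretch of human DNA, a bacterial artificial chromosome or BAC, that spans C9ORF72 with 500 G4C2 repeats (C9-BAC mice) with 3 wild-type male mice, all on an SJL/Bl6 background. Repeats of this kind in C9ORF72 are a known cause of amyotrophic lateral sclerosis and frontotemporal dementia, and the comparison asks what the transgene with its repeats does to the brain transcriptome. The labels do not state brain region, age or batch. Samples carry separate numbers and are taken as separate mice; otherwise their p-values would measure technical spread only.

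As background, sodium channel α subunits open on depolarization and start the action potential, and β subunits adjust their gating and placement. Calcium channels turn the action potential into calcium entry, which triggers transmitter release at terminals and signals to the nucleus from the cell body. HCN channels open on hyperpolarization and set rhythm and resting excitability, NALCN passes a steady inward leak of sodium, and the FGF-homologous factors bind the tail of sodium channels inside the cell and tune their inactivation.

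None of the 30 channel genes passed the authors' DESeq2 test of C9-BAC against wild-type at an adjusted p under 0.05, and 0% of all 15944 rows with a p in the authors' deposited table were called. The log2 fold changes (log2FC) of the 30 genes in the authors' deposited table ran from -0.20 for Scn9a to 0.12 for Cacnb1, or 0.872-fold to 1.09-fold, and 27 of 30 lay within 0.1 of 0 (for all rows with a p the share is 82.6%). Scn9a alone had an unadjusted p under 0.05, so 1 of 30 stood against a background of 1.5% of all rows in either direction and 0.84% in its own, the negative, direction in the authors' deposited table. An unadjusted p under 0.05 with a positive sign, which no channel gene had, was reached by 0.659% of rows in the authors' deposited table. Positive values were held by 12 of the genes and negative ones by 18, with a median of -0.02, beside 47.5% positive and a median of -0.004 over all rows in the authors' deposited table. The file headers do not name the numerator of the ratio, so each sign is given as deposited and not as a rise or fall in C9-BAC mice.

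The authors' deposited table summarises each gene over both groups, and values per mouse are not analysed here. Standard errors of the 30 genes ran from 0.0763 to 0.11 in the authors' deposited table. A 95% normal interval from fold change and standard error held 0 for 29 of the 30 genes, and its outermost bounds over them were 0.757-fold and 1.24-fold on the scale of the authors' deposited table. The highest standard error of any row in the authors' deposited table is 0.110014, a ceiling that happens with estimates that were shrunk toward 0, so these bounds may be narrower than those of unshrunken changes. The absolute log2FC was smaller than its own standard error in 26 of the 30 genes in the authors' deposited table.

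**Figure D1:**
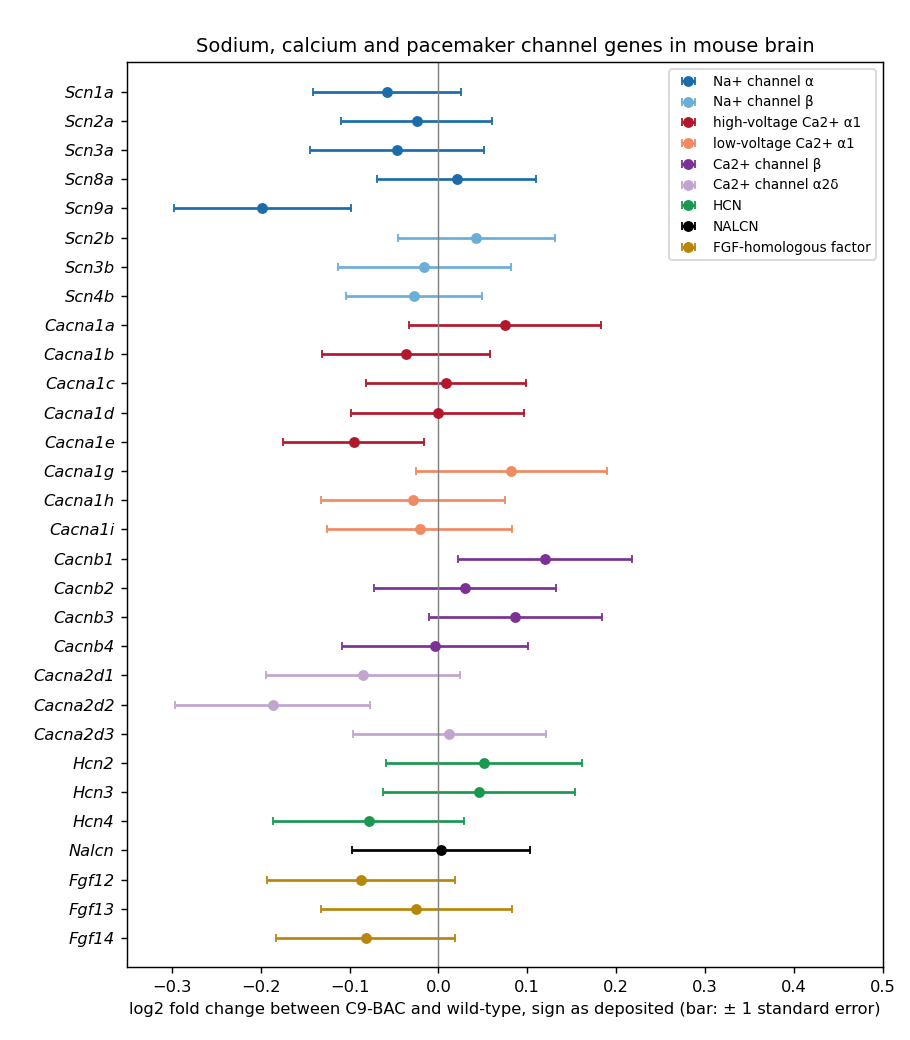
Log2FC of each of the 30 channel genes between C9-BAC (5 mice) and wild-type (3 mice) brain, sign as deposited, with bars of ± 1 standard error from the authors' deposited table and colours by role. The points lie between -0.20 and 0.12, and 26 of the 30 bars reach 0.

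The channel genes mostly had high counts in these samples, but counts rise with transcript length (median 6341 bases here against 2872 over all rows). Their mean normalized counts (counts scaled for library size and averaged by the authors, called normalized counts from here on) had a median of 1343, above 90.1% of all rows, and 20 of the 30 exceeded 1000 in the authors' deposited table. Per kilobase of transcript, 25 genes had a normalized count between 100 and 1000, 1 was above and 4 were below, computed from the authors' deposited table. The highest level per kilobase belonged to Fgf12 (1311), followed by Scn2a (894.3) and Scn2b (869.1), computed from the authors' deposited table. The lowest belonged to Scn9a (5.17), Hcn4 (7.76), Hcn3 (37.1) and Cacna2d2 (58.4), again per kilobase and computed from the authors' deposited table. Transcript lengths are medians over the annotated transcripts of a row, so a level per kilobase shifts with the isoforms in use. The labelled tissue showed its defining markers: the neuronal genes Snap25 and Syt1 had normalized counts of 13868 and 12431 and the myelin gene Mbp 9162 in the authors' deposited table. Of 4 sensory neuron genes, 3 had rows, at 1.54 to 5.18, and of 4 genes of cerebellar Purkinje and granule cells, 2 had rows, in the authors' deposited table. In tissue RNA of this kind, fewer cells of a type and less RNA per cell cannot be told apart.

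**Figure D2:**
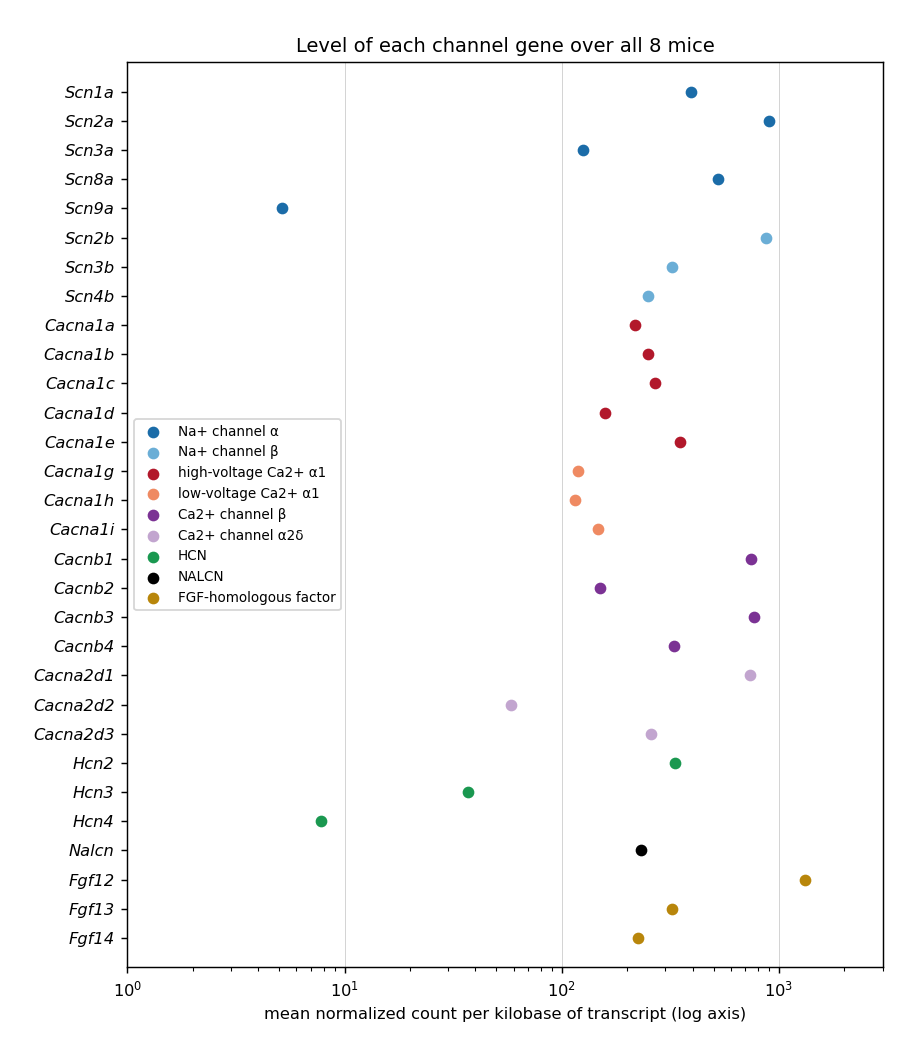
Normalized count per kilobase of transcript for each channel gene over all samples, on a log axis, computed from the authors' deposited table. Most genes lie between 100 and 1000, while Scn9a, Hcn4, Hcn3 and Cacna2d2 lie below 100.

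Among the sodium channel α subunits, 4 of 5 had negative values and the median log2FC was -0.05 in the authors' deposited table. Scn2a, the α subunit of excitatory axons early in life, was the most abundant, with a normalized count of 7772 and a log2FC of -0.02 ± 0.08 (SE) in the authors' deposited table. Scn8a, the main α subunit of mature nodes and axon initial segments, had a normalized count of 5883 and a log2FC of 0.02 ± 0.09 (SE) in the authors' deposited table. Scn1a, which inhibitory interneurons depend on for firing, had a normalized count of 3201 and a log2FC of -0.06 ± 0.08 (SE), and Scn3a, best known from the developing brain, 1072 and -0.05 ± 0.10 (SE), in the authors' deposited table. All of these 4 values were smaller than their standard errors.

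Scn9a, best known as a pain-related channel gene of peripheral sensory neurons, had the largest negative value of all 30 genes. Its normalized count was 44.8, its log2FC -0.20 ± 0.10 (SE), and its unadjusted p 0.0461 in the authors' deposited table. The DESeq2 adjusted p of Scn9a was 0.9997 in the authors' deposited table, so the difference did not pass. This value is also the lowest adjusted p of any row, so it does not set single genes apart. Scn9a made up 0.249% of the normalized counts of the 5 α subunit genes in the authors' deposited table. The normalized counts of Scn2a, Scn1a and Scn3a were 173.4, 71.4 and 23.9 times that of Scn9a in the authors' deposited table.

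Scn1a, Scn2a, Scn3a and Scn9a share long identical stretches of coding sequence, so their rows, and the sparse Scn9a row most of all, are reported as uncertain. These 4 genes lie together on mouse chromosome 2 (chr2:65457118-66635114, GRCm38, the assembly also called mm10). Coding sequences are from GENCODE M21 transcripts. Scn1a and Scn2a share a run of 188 identical bases within a coding exon of each gene, and Scn3a and Scn9a share 184 bases across an exon junction in each gene.

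Over the 10 pairs of sodium α subunits, the longest shared run had a median of 102 bases and a range of 32 to 188. By contrast the 28 pairs of calcium α1 subunits had a median of 20 and a highest value of 68, and no pair of HCN genes, of calcium β or α2δ subunits, of sodium β subunits or of FGF-homologous factors exceeded 33. Of all 50-base windows of the coding sequence, 14.0% in Scn3a, 11.3% in Scn2a, 9.17% in Scn9a and 7.69% in Scn1a also occurred in transcripts of another gene, on either strand. In the coding transcript used for Scn8a, on chromosome 15, the share was 0 of 5885 windows, and 18 of the 30 channel genes had no such window. Annotated Scn8a transcripts are nevertheless among those that hold 50-base windows of Scn3a, so the 0 covers only the transcript used. Read length and the treatment of reads that fit several genes are not stated in the labels or file headers, and the part of shared sequence in the Scn9a value was not tested. By gene bounds, Scn9a also overlaps an antisense row, Gm13629, with a normalized count of 35.2 and a log2FC of -0.02 (p = 0.849) in the authors' deposited table. Gm13629 is also among the genes that share 50-base windows with Scn1a, Scn2a, Scn3a and Scn9a. The shares above therefore mix matches to the other sodium channel genes with matches to this antisense RNA, which were not counted apart. The libraries kept strand, per the labels' protocols, but whether the counting used it is not stated.

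**Figure D3:**
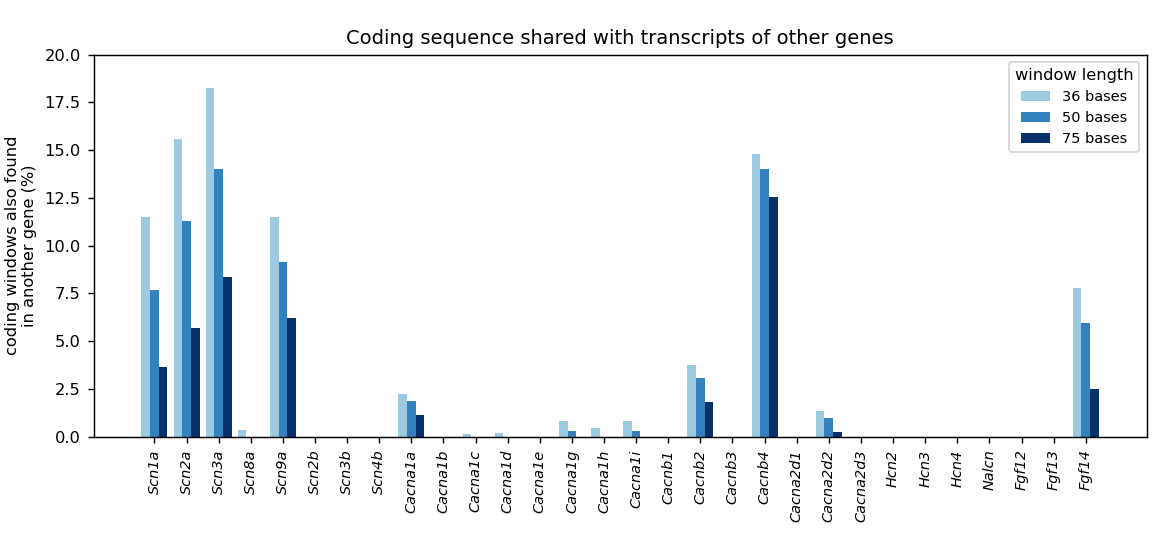
Share of coding windows of 36, 50 and 75 bases, in percent, that also occur in annotated transcripts of another gene, for each channel gene. Scn1a, Scn2a, Scn3a and Scn9a share windows with each other and, at 36 and 50 bases, with the antisense RNA Gm13629. Cacnb4 (14.0% at 50 bases) shares them with an annotated RNA, A430018G15Rik, that was not matched to a row.

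The sodium channel β subunits had log2FC values between -0.03 and 0.04 in the authors' deposited table. Scn2b, which is tied to the α subunit by a disulfide bond, had a normalized count of 3440 and a log2FC of 0.04 ± 0.09 (SE) in the authors' deposited table. Scn3b, whose product binds without such a bond, had values of 1334 and -0.02 ± 0.10 (SE) in the authors' deposited table. Scn4b, a β subunit abundant in striatal neurons and linked to resurgent sodium current, had values of 1248 and -0.03 with the smallest standard error of the 30 genes, 0.0763, in the authors' deposited table. A small standard error need not mean a well-measured gene here: Scn11a, at a normalized count of 1.54, had one of 0.034. Those of the striatal genes Ppp1r1b, Drd1, Drd2 and Adora2a were 0.0664, 0.063, 0.045 and 0.0409, with log2FC values from -0.03 to 0.006. The source of these small standard errors was not tested.

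The α1 subunits, which form the pore of calcium channels, had values on both sides of 0. Of the 5 high-voltage-activated ones 2 were positive and 3 negative, with a median log2FC of -0.0006 in the authors' deposited table. Cacna1a and Cacna1b, which code for the P/Q-type and N-type channels of presynaptic terminals, had log2FC values of 0.08 ± 0.11 (SE) and -0.04 ± 0.10 (SE) in the authors' deposited table. The L-type genes Cacna1c and Cacna1d, which link membrane activity to gene expression, had the values 0.01 ± 0.09 (SE) and -0.0006 ± 0.10 (SE) in the authors' deposited table. Cacna1e, the R-type gene and the most abundant calcium channel α1 gene here by normalized count (5217), had a log2FC of -0.10 ± 0.08 (SE; p = 0.231) in the authors' deposited table. By gene bounds, with exons not compared, Cacna1c and Cacna1d overlap genes on the opposite strand that also have rows, Dcp1b, Dcp1a and Chdh. The calcium channel β gene Cacnb2 overlaps a pseudogene row on its own strand, Gm13315. Their normalized counts were 455.4 and 42.3 in the authors' deposited table.

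T-type, or low-voltage-activated, channels open near rest and support burst firing. Their genes Cacna1g, Cacna1h and Cacna1i had log2FC values of 0.08, -0.03 and -0.02, each smaller than its standard error (0.11, 0.10 and 0.10), in the authors' deposited table. Cacna1g and Cacna1i hold the longest run shared by calcium channel genes, 68 bases, and it is printed here because a short read from it fits either gene. The sequences are written 5′ to 3′ on the coding strand, with 12 bases of coding sequence on each side of the run in lower case. The run lies in a coding exon of each gene, at chr11:94443187-94443254 on the minus strand in Cacna1g and chr15:80369688-80369755 on the plus strand in Cacna1i (GRCm38), with the run in capitals.
Cacna1g: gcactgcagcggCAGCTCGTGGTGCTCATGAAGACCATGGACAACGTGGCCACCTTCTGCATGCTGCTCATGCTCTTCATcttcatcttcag
Cacna1i: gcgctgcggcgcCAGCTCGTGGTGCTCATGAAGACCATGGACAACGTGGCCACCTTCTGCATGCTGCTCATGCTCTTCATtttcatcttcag
At 50 bases, 0.278% of the coding windows of Cacna1g and 0.305% of those of Cacna1i were shared with another gene.

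Calcium channel β subunits sit inside the cell, bring the α1 subunit to the surface and shape its gating. Of the 4 genes, 3 were positive, with a median log2FC of 0.06 in the authors' deposited table. Cacnb1, on chromosome 11 at 98001508 to 98023034, had the largest positive value of the 30 genes, 0.12 ± 0.10 (SE; p = 0.221, DESeq2 adjusted p = 0.9997), and its normalized count was 1352, in the authors' deposited table. Cacnb3 followed with 0.09 ± 0.10 (SE, p = 0.373), while Cacnb2 had 0.03 and Cacnb4 -0.004, each ± 0.10 (SE), in the authors' deposited table. No β subunit gene had an unadjusted p under 0.05.

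The α2δ subunits are anchored outside the cell, raise the number of channels at the surface and include the binding sites of gabapentin. Cacna2d2, on chromosome 9 at 107399733 to 107529346, had the second-lowest value of the 30 genes, a log2FC of -0.19 ± 0.11 (SE; p = 0.0891, DESeq2 adjusted p = 0.9997), and its normalized count was 337.7, in the authors' deposited table. Its 95% interval ran from 0.757-fold to 1.02-fold on the scale of the authors' deposited table. Cacna2d1, the most abundant of the 3 with a normalized count of 2868, had a log2FC of -0.08 ± 0.11 (SE), and Cacna2d3 had 0.01 ± 0.11 (SE) in the authors' deposited table. Cacna2d2 is also known for its high level in cerebellar Purkinje cells. Calb1, a marker shared by Purkinje and other neurons, had a normalized count of 840.4 and a log2FC of 0.01, and Cbln1, a granule cell gene, 50.6 and -0.002, in the authors' deposited table. The other two markers of this list, the Purkinje cell gene Pcp2 and the granule cell gene Gabra6, were not matched to a row.

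The HCN genes Hcn2 and Hcn3 had log2FC values of 0.05 each and Hcn4 one of -0.08, with a standard error of 0.11 for each, in the authors' deposited table. Hcn2, the HCN gene of thalamic relay and many other neurons, had a normalized count of 1065, Hcn3 148.6 and Hcn4, the main pacemaker channel gene of the heart's sinoatrial node, 47.5 in the authors' deposited table. Nalcn, with a normalized count of 1649, had a log2FC of 0.003 ± 0.10 (SE; p = 0.977) in the authors' deposited table. The FGF-homologous factor genes were negative in 3 of 3: Fgf12 at -0.09 ± 0.11 (SE), Fgf13 at -0.02 ± 0.11 (SE) and Fgf14 at -0.08 ± 0.10 (SE) in the authors' deposited table. Their unadjusted p-values were 0.411, 0.816 and 0.418 in the authors' deposited table, and none passed the test.

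The channel genes differ widely in base composition, and their log2FC values tended to be higher at higher GC content. Transcript GC content ran from 38.8% in Cacnb4 to 65.4% in Hcn2, with a median of 49.95% against 50.5% for all rows with a p. Of the 17 channel genes below the median of all rows, 5 had positive and 12 negative log2FC values, and of the 13 above it 7 were positive and 6 negative, in the authors' deposited table. Over all rows, 33.5% of those below this median and 61.5% of those above it were positive. Across the 30 genes, which share the same libraries and are not independent replicates, Spearman's rho between GC content and log2FC was 0.48 and Pearson's r 0.43. Over all rows with GC content the same rho was 0.38, in the same direction. The channel transcripts were long, with a median of 6341 bases against 2872 for all rows, and rho with transcript length was -0.27. The part of base composition in any single value was not tested.

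With the trend on GC content and length over all rows taken off, 15 of the 30 genes were positive and 15 negative, the median log2FC was -0.0005, and rho with GC content was 0.08. The trend was fitted on GC content itself over rows that include these genes, so a rho near 0 follows largely from the fit. The sign changed for 5 genes and the largest shift was 0.07. Scn9a was then at -0.16, Cacna2d2 at -0.21 and Cacnb1 at 0.09, on this trend-adjusted log2 scale. The median of the sodium channel α subunits was -0.007 on this scale, with 2 of 5 positive, against -0.05 in the authors' deposited table. Medians of the sodium β, high-voltage and low-voltage α1 subunits were -0.004, -0.006 and -0.05 on the trend-adjusted scale, and those of the calcium β, α2δ and HCN genes 0.06, -0.06 and 0.009. The FGF-homologous factors, with GC contents of 41.7% to 46.9%, had a trend-adjusted median of -0.03 and were positive in 1 of 3.

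**Figure D4:**
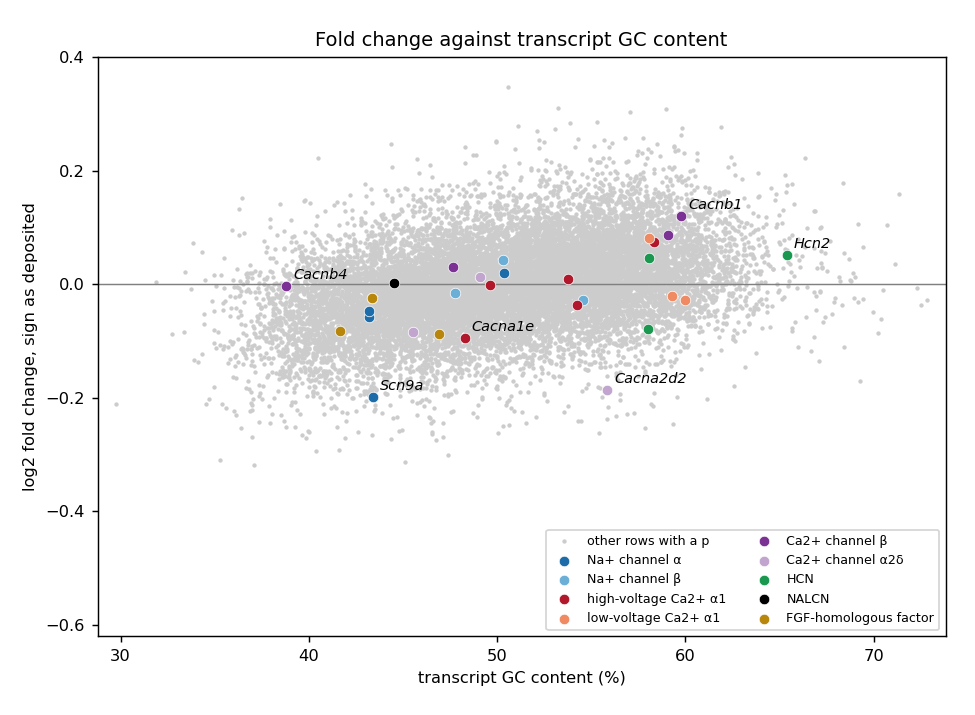
Log2FC, sign as deposited, against transcript GC content in percent for all rows with a p (grey) and for the channel genes (coloured by role). The channel genes lie within the cloud of all rows, with Scn9a and Cacna2d2 lowest and Cacnb1 highest among them.

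Genes that work with these channels were read in 7 lists of 54 genes, of which 52 had a row. By the authors' DESeq2 adjusted p none was called, and an unadjusted p under 0.05 was reached by 3, with 38 positive and 14 negative values and a median log2FC of 0.03 in the authors' deposited table. Over all rows with a p in the authors' deposited table, 1.5% were under an unadjusted 0.05 and 47.5% were positive. Of the 52 genes, 35 were positive with the trend on GC content and length taken off. Scn4a and Nalf2 were the genes without a row.

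Of the remaining subunits of the same families, 10 of 11 had a row, 7 were positive and 3 negative, and 2 had an unadjusted p under 0.05 with opposite signs in the authors' deposited table. The median normalized count of these subunits was 55.1. Cacna1s, the calcium channel α1 subunit of skeletal muscle, had a normalized count of 48.7 and a log2FC of 0.26 ± 0.11 (SE; p = 0.02, DESeq2 adjusted p = 0.9997) in the authors' deposited table. Cacna1s shares 5.88% of its 50-base coding windows with the annotated transcript Gm37759. Of 5 heart and skeletal muscle markers, 4 had rows, with normalized counts from 7.85 for Myh6 to 230.3 for Actn2, of which 2 were positive and 2 negative in the authors' deposited table. Their part in the value of Cacna1s was not tested.

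Genes of the axon initial segment, where sodium channels are gathered, were positive in 7 of 7 with a median log2FC of 0.05, and the smallest unadjusted p-values were those of Trim46 (0.09, p = 0.366) and Sptbn4 (0.09, p = 0.414) in the authors' deposited table. Ank3, which codes for the ankyrin that anchors sodium channels, had a log2FC of 0.0006 in the authors' deposited table and was named after its value was seen. With the trend on GC content and length taken off, 6 of the 7 axon initial segment genes were positive and Ank3 was at -0.002. Presynaptic partners of calcium channels had 6 positive and 3 negative values, with the syntaxin gene Stx1a at 0.25 ± 0.11 (SE, p = 0.0219) and the active zone gene Erc1 at -0.11 ± 0.11 (SE, p = 0.282) in the authors' deposited table. The neuronal list holding Snap25, Rbfox3, Syt1, Slc17a7 and Gad1 had 4 positive and 1 negative members and a median log2FC of 0.04 in the authors' deposited table, and its part in these lists was not tested. Snap25 and Syt1, each positive, also belong to the list of presynaptic partners, so the counts by sign of these lists share them. The negative member of the neuronal list was Gad1, an enzyme gene of inhibitory neurons, at -0.19 ± 0.10 (SE; p = 0.0694, DESeq2 adjusted p = 0.9997) in the authors' deposited table. Gad1 was likewise named after its value was seen, and the 4 positive members ran from 0.005 for Syt1 to 0.10 for Rbfox3.

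Genes of calcium stores and pumps had 10 positive and 3 negative values and a median log2FC of 0.05, led by the inositol trisphosphate receptor gene Itpr3 (0.18, p = 0.0999) and the ryanodine receptor gene Ryr1 (0.16, p = 0.13) in the authors' deposited table. Sodium pump genes had 4 positive and 2 negative values, with Atp1b1 at -0.08 (p = 0.313) in the authors' deposited table. The NALCN complex had 1 positive and 2 negative values, with Fam155a (also called Nalf1) at 0.07 (p = 0.445) and Unc80 at -0.03 (p = 0.766) in the authors' deposited table. Channel trafficking genes had 3 positive and 1 negative, with Scnm1, a splicing factor gene that modifies Scn8a, at 0.08 (p = 0.456) and Pex5l, which codes for the HCN partner TRIP8b, at 0.06 (p = 0.46) in the authors' deposited table. No gene of these last 4 lists had an unadjusted p under 0.05.

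**Figure D5:**
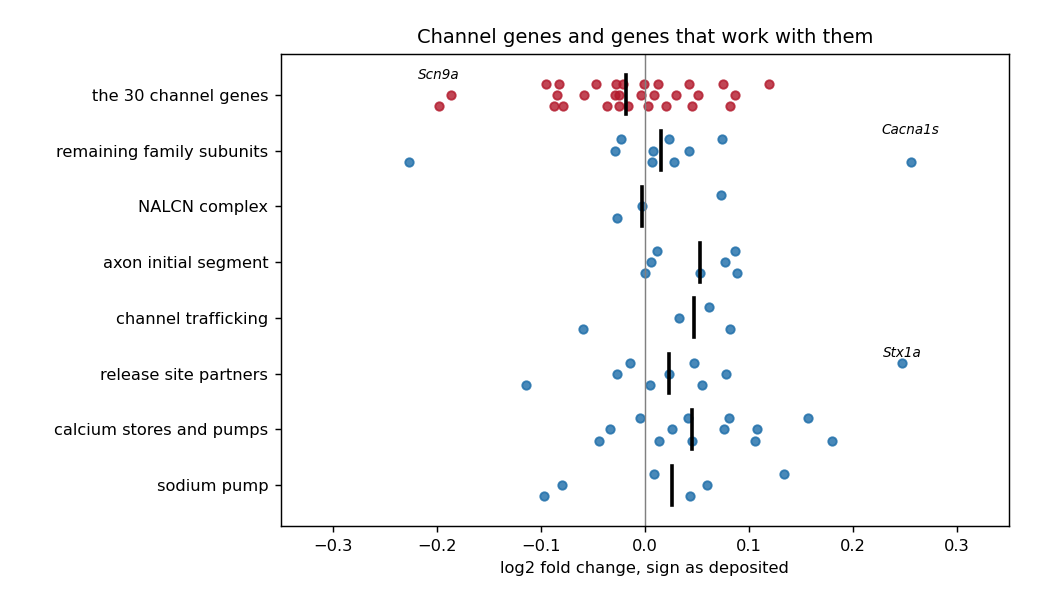
Log2FC, sign as deposited, of the 30 channel genes (red) and of the genes in 7 related lists (blue), with the median of each list as a black bar. Scn9a, Cacna1s and Stx1a, each with an unadjusted p under 0.05, are named beside their points.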

How the data were processed

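Per the labels' protocols, brain RNA came from a Trizol extraction and libraries kept strand, with no poly(A) selection. Per the submitters' processing notes, the tools were Trimmomatic, Bowtie2, DESeq and DESeq2 on build mm10, without versions; for the counter, annotation and filters nothing is given in the sources used here. The deposited mean normalized count is a signal, counts divided by size factors and averaged over samples by the authors. The other deposited columns are the authors' DESeq2 results, per the file headers: log2 fold change (log2FC) with its standard error (SE), both on the log2 scale, Wald statistic (a score), p-value and adjusted p-value. Recomputed, the statistic (log2FC over SE) was within 8.27e-07 of the deposited one, and a Benjamini-Hochberg adjustment over 15944 rows within 5.33e-12. The mean normalized counts sum to 9226666, the only measure of depth used here.

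Rows were named by RefSeq accession from a GRCm38.p6 gene table (15853 rows) or GENCODE M21 (77 rows), and 48 had no symbol. Transcript GC content and length are medians over M21 transcripts (15869 rows). Trends were fitted by least squares (quadratic in GC content, linear in log2 length) over rows with a p, in Python 3.11.15 with numpy 2.4.6, pandas 2.3.3 and scipy 1.17.1, and tested on simulated data. Coding windows came from the longest coding transcript of each row and were sought in all M21 transcripts. All 30 channel genes are named, and from each related list the 2 genes of smallest unadjusted p and any under 0.05. Some genes under this rule, and some shared sequences, are not reported here, while counts and medians cover whole lists. Genotypes were taken from the sample labels. The channel genes and lists were chosen with earlier results of these data known.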

Additional observations from a re-analysis of the deposited data

How the results depend on the processing

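The count of channel genes called stayed at 0 with p-values adjusted only over rows whose mean normalized count reached 10, at an adjusted p of 0.1, and on an empirical null (the statistic centred on its median and divided by its MAD-based SD). The number of genes under an unadjusted 0.05, 1 as deposited, was 2 under the empirical null (4.95% of rows), 2 with the GC content and length trend also removed (6.33% of rows) and 0 among the 28 channel genes whose mean normalized count reached 50 (1.65% of rows). Scn9a, at 44.8, is left out of the last by construction. Cacna2d2 is added in the others, with an unadjusted p of 0.035 and 0.00522. Of 105 alternative values, the other 102 moved by less than a standard error or by less than 1.5 times, and none of 16 list medians changed sign with the trend removed. A standard error is a wide bar here. The largest shift of a channel gene by the trend removal was 0.07, below the smallest standard error of these genes, 0.0763. The 5 genes that changed sign thus count as unmoved, and the 102 says little about robustness. With the median of all rows taken as 0, the median log2FC of the high-voltage α1 subunits went from -0.0006 to 0.004. That of the NALCN complex went from -0.002 to 0.002, and the negative channel genes from 18 to 16. No paired analysis was possible because the genotypes share no replicate number. Fits without 1 mouse need values per mouse and were not run. Depth per mouse was not analysed here.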
